A study of Homo sapiens with 4 samples.

Results

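DACH1 induced was compared with DACH1 silenced in U87TR-Da cells labelled as grown in serum, with 1 array on each side. These are 2 of the 4 arrays of the series, chosen by their titles, and they measure the RNA of whole cultures. The arrays carry 54613 probe sets, which name 19775 genes, and 12190 of these genes were bright enough to compare while 7585 were not. U87TR-Da is derived from U87MG, an established human glioblastoma line, and was made so that doxycycline turns DACH1 on.

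The silenced array is labelled as cells without DACH1 expression and the induced array as cells with it, both in DMEM with 10% FBS. The other pair, used here only for side-by-side values, carries the same DACH1 labels in serum-free Neurobasal medium with bFGF, EGF and the supplements B-27 and N-2. Every label, those of the silenced arrays included, records exposure to 1 µg/mL doxycycline for 72 h, and how the silenced cells were kept without DACH1 is not given in the sources used here. As labelled, doxycycline was thus the same on both sides of the pair. If the silenced cells were in fact kept without it, any effect of doxycycline itself and of DACH1 cannot be told apart. The promoter of the inducible construct, whether U87TR-Da is 1 clone, and the number of cultures behind an array are likewise not given in the sources used here. With 1 array a side there is no replicate error and no test, and each value below describes a pair of arrays. The cells were measured in bulk, so fewer cells of a kind and less RNA per cell cannot be told apart.

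DACH1 is a nuclear protein of the SKI and SNO family that binds chromatin, mostly as a repressor, and belongs to the retinal determination network with the EYA proteins. It is often lost in tumours, and FGF2, a mitogen for glioma and neural stem cells, is a gene studied with it in glioma. The inflammatory genes described below, IL6, the neutrophil-attracting CXC chemokines and PTGS2, are classical targets of NF-kB, a transcription factor that the interleukin 1 receptor activates, working beside AP-1 and C/EBP proteins. Glioblastoma cells of the mesenchymal type are known for secreting these cytokines, matrix proteins and proteases.

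Promoter windows of FGF2 and of the chemokine, interleukin 6 and prostaglandin genes furthest below 0 (those with the lowest log2 difference, induced minus silenced) are shown because the results turn on them, with the window of IL1B beside them because its signal was high and nearly equal on both arrays. They are RefSeq sequences on GRCh38.p14, each from 250 bases before to 50 bases after the gene's start, written 5′ to 3′ on the gene's strand. The windows lie at chr7:22726950-22727249 on the plus strand (IL6), chr4:73869143-73869442 on the plus strand (CXCL1), chr4:74038640-74038939 on the minus strand (CXCL3), chr4:73998628-73998927 on the minus strand (CXCL5), chr1:186680374-186680673 on the minus strand (PTGS2), chr4:122826581-122826880 on the plus strand (FGF2) and chr2:112836730-112837029 on the minus strand (IL1B). Capitals mark a match to the NF-kB motif searched here on both strands, which is GGG, any 2 bases and TTTCC.
IL6: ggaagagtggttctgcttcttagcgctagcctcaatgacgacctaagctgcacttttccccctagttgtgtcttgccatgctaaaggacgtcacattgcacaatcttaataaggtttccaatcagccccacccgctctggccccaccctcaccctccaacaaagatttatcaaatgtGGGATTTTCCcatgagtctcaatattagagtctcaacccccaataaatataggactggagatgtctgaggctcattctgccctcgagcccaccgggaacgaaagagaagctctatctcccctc
CXCL1: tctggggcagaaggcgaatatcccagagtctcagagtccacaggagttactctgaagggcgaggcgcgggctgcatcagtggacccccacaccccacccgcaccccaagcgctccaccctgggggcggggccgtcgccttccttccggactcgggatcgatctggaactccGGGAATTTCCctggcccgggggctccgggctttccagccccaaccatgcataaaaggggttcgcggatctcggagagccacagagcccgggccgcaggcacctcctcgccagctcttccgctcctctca
CXCL3: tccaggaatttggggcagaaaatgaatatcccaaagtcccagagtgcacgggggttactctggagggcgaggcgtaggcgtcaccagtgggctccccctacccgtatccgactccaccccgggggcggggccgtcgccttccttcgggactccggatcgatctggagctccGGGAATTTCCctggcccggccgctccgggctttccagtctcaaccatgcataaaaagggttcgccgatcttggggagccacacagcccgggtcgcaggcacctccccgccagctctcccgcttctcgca
CXCL5: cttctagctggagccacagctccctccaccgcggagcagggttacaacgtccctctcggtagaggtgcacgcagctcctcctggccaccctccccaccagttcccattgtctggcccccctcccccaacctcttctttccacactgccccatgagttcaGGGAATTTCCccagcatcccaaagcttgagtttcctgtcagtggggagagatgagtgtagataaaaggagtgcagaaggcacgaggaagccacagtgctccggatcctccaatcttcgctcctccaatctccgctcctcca
PTGS2: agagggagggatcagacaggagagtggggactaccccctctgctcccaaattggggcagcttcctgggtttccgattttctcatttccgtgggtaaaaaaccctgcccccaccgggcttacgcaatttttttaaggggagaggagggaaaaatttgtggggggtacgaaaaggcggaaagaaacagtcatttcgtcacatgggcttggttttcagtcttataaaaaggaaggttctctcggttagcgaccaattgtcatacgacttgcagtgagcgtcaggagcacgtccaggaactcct
FGF2: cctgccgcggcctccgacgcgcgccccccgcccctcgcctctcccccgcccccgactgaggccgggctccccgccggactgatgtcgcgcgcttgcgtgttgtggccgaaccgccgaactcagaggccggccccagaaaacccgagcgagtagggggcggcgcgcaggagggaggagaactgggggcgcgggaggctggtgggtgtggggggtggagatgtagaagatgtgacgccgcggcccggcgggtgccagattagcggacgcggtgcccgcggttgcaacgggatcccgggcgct
IL1B: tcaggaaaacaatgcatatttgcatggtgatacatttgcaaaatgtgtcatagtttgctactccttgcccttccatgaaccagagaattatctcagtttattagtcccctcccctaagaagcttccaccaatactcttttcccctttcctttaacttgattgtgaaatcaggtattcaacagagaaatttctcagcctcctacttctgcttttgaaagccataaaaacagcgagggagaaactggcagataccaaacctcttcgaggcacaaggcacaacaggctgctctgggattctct

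The IL6 window held GGGATTTTCC from 73 to 64 bases upstream of the start. Those of CXCL1 and CXCL3 held GGGAATTTCC at the same place, from 79 to 70 bases upstream, and the CXCL5 window held it from 91 to 82 bases upstream. In the windows of PTGS2, FGF2 and IL1B, and in those of PLA2G4A and IL24, which are not printed, neither this motif nor the AP-1 motif TGANTCA occurred in these letters on either strand. Sites spelled otherwise were not searched for, so a window without a match can still hold one. Over all 35116 promoter windows, 1.91% held the NF-kB motif and 7.71% the AP-1 motif. A window was found for 9929 of the genes compared (81.5%), and of these genes' 14541 windows 2.13% and 5.68% held the motifs.

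Among genes with a signal of 100 or more on 1 of the arrays, the windows of those at least 2-fold lower with DACH1 induced held the NF-kB motif in 14 of 335 (4.18%) and the AP-1 motif in 34 (10.1%). For those at least 2-fold higher the counts were 5 of 249 (2.01%) and 30 (12%). The 335 windows belong to 202 genes and the 249 to 134, so a gene can count more than once. Without the limit on signal, windows of lower genes held the motifs in 21 of 705 (2.98%) and 62 (8.79%). Those of higher genes held them in 9 of 454 (1.98%) and 50. Windows of genes within 1.2-fold, also without that limit, held them in 1.88% and 4.89%. The AP-1 share thus stood above that of all compared windows on both sides, and the NF-kB share on the lower side. The set of all compared windows had no limit on signal either, and the part of brightness in the shares was not tested. Base composition also differed between these sets, though the AP-1 share did not follow it between the lower and the higher side. The median GC content was 59.3% in the bright lower windows, 62.7% in the bright higher ones and 64.3% in those within 1.2-fold. The part of base composition in the shares was not tested. The 2 other motifs searched were TGATGNAA, of the ATF4 type, and TCACNCCAC, of the sterol type. The first was in 3.88% of the bright lower and 4.42% of the bright higher windows, the second in 0.299% and 0.402%. The same motifs were in 2.20% and 1.01% of all compared windows.

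The targeted gene was read by 3 probe sets. The brightest read 126.0 on the silenced array and 4431 on the induced array, in the linear units that MAS5 gives, which is 35.2-fold higher. The other two read 23.1 and 24.7, and 8.3 and 4.0, so both were at or near the background on both arrays. DACH1 was thus high on the induced array in the probe set that detected it, and the value rests on that probe set. On the arrays labelled serum-free the brightest probe set read 32.5 silenced and 875.1 induced.

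The medium labels were checked on 19 genes that serum is known to raise through serum response factor, BMP or TGF-beta. Of these, 16 were brighter on both arrays labelled serum-free than on either array labelled serum, against what the labels say. CNN1, a smooth-muscle calponin, read 33.2 and 39.4 in the pair labelled serum, against 874.0 and 606.7 in the other. ID3, a BMP target, read 45.2 and 75.7 against 1122 and 998.9. For the collagen gene COL1A2 the signals were 571.4 and 706.6 against 8975 and 7620. Sterol-regulated genes, which serum lipids are known to lower, were less uniform: of 6, 4 were dimmer on both arrays labelled serum-free than on either labelled serum, and SQLE and DHCR7 overlapped. The medium is therefore named below only as the labels give it, and which medium each pair had was not tested further. The silenced and induced labels were followed by DACH1 in both pairs.

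Markers of a mesenchymal glioma line were all 6 above the filter used here, led by VIM, the intermediate filament vimentin, at 6065 silenced and 6366 induced, and CD44, the hyaluronan receptor, at 4955 and 5666. The neural stem cell filament NES was low, at 19.6 and 35.8. Of 5 astrocyte markers 4 were under the filter on both arrays, among them the astrocyte filament GFAP at 0.4 and 1.6. The summed signal of the markers was 33 silenced and 42.7 induced for immune cells (1 of 4 markers above the filter), 38.2 and 36.8 for endothelial cells (1 of 3) and 35.5 and 19 for epithelial cells (1 of 4). For oligodendrocytes it was 38 and 25.3 (1 of 3). The immune marker PTPRC, the endothelial CDH5 and the epithelial CDH1 were each under the floor on both arrays. Neuronal markers summed to 1495 and 2332 (3 of 5), nearly all of it TUBB3, a tubulin that glioma lines also express.

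A floor of 10.9 was set under the signals, at the 40th percentile of the 4 arrays, and a gene was compared when at least 1 array of the pair reached the median signal, 17.2. A fold against an array under the floor is a lower bound and is written "at least". Where a pair of signals is given for a gene, the silenced array comes first. Of 12190 genes, 355 (2.91%) were at least 2-fold higher with DACH1 induced and 582 (4.77%) at least 2-fold lower, 937 in all (7.69%). Of these, 62.1% were lower. Scaling the 4 arrays to 21 housekeeping genes moved the median log2 difference of all genes compared by -0.26, to -0.25. More genes passed the filter under this scaling, 13485, of which 271 were higher and 1221 lower (81.8% lower). The shift is thus between medians of sets of genes that are not the same. The housekeeping genes' own median was 0.12 as deposited and -0.12 after this scaling, which divides each array by their median signal, so it moved them past 0. Quantile normalization gave 57.8% lower. Directions of whole gene lists are therefore given relative to the median of all genes, which was 0.01 on the log2 scale as deposited.

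**Figure D1:**
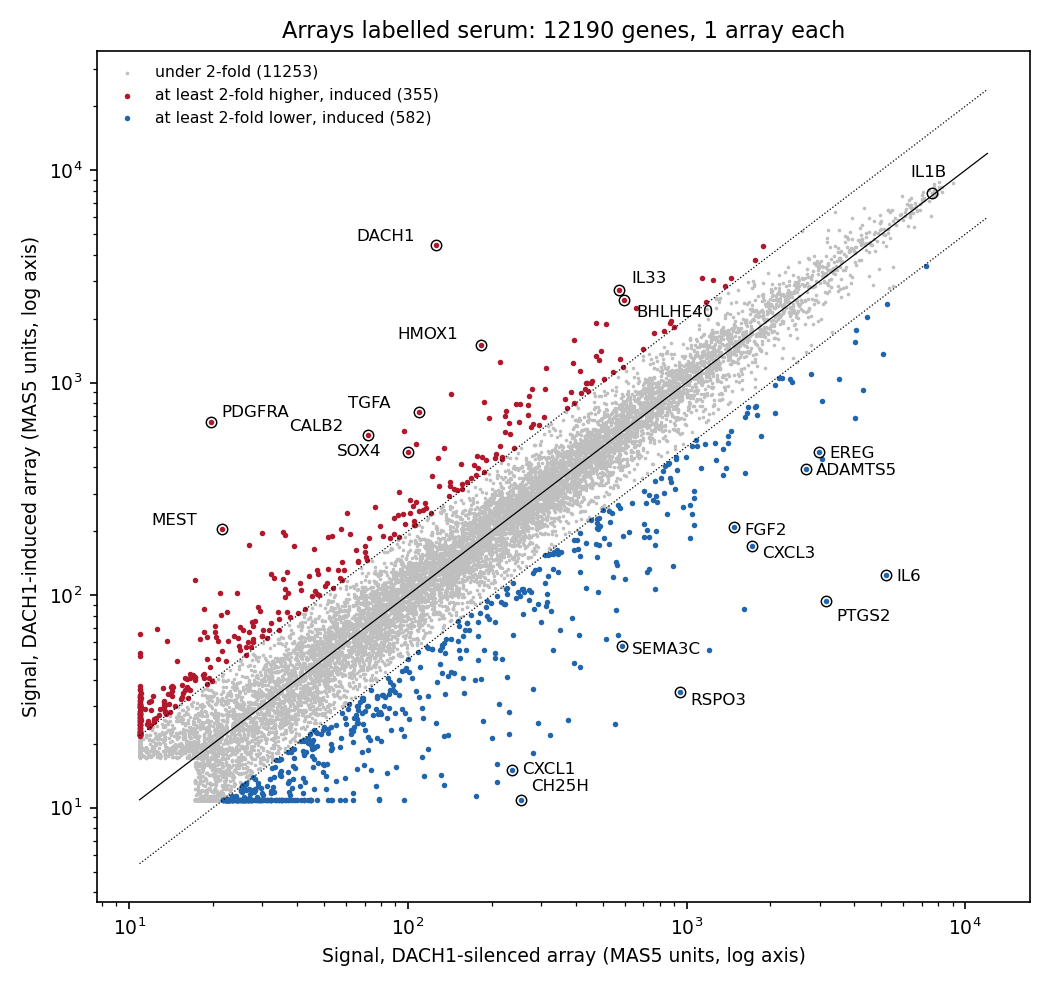
Each point is 1 of 12190 genes, with its signal on the DACH1-silenced array on the x axis and on the DACH1-induced array on the y axis, both in MAS5 units on log axes with signals under 10.9 set to 10.9. The solid line marks equal signals and the dotted lines 2-fold; 355 genes lie at or above the upper line and 582 at or below the lower one, with DACH1 and PDGFRA far above and IL6 and PTGS2 far below.

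Many of the differences were in bright genes. With a signal of 100 or more on 1 array, 165 of 7349 genes were higher and 258 lower, together 5.76%. In the 6 ranges of brightness from under 50 to 1000 and over, the share past 2-fold was 12.1%, 8.18%, 5.44%, 5.31%, 6.35% and 6.46%. The pair labelled serum-free, which shares no array with this one, had 12.4%, 2.18%, 0.363%, 0%, 0.163% and 0.082% in the same ranges. Its bright genes past 2-fold numbered 11 of 7294 (2 higher and 9 lower). The dimmest genes thus differed about as often in both pairs, while bright genes past 2-fold were common in the pair labelled serum and rare in the other. Among genes at 1000 and over the median size of the log2 difference was 0.22 in the pair labelled serum and 0.099 in the other. The pairs were not set against an error, since neither has a replicate.

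**Figure D2:**
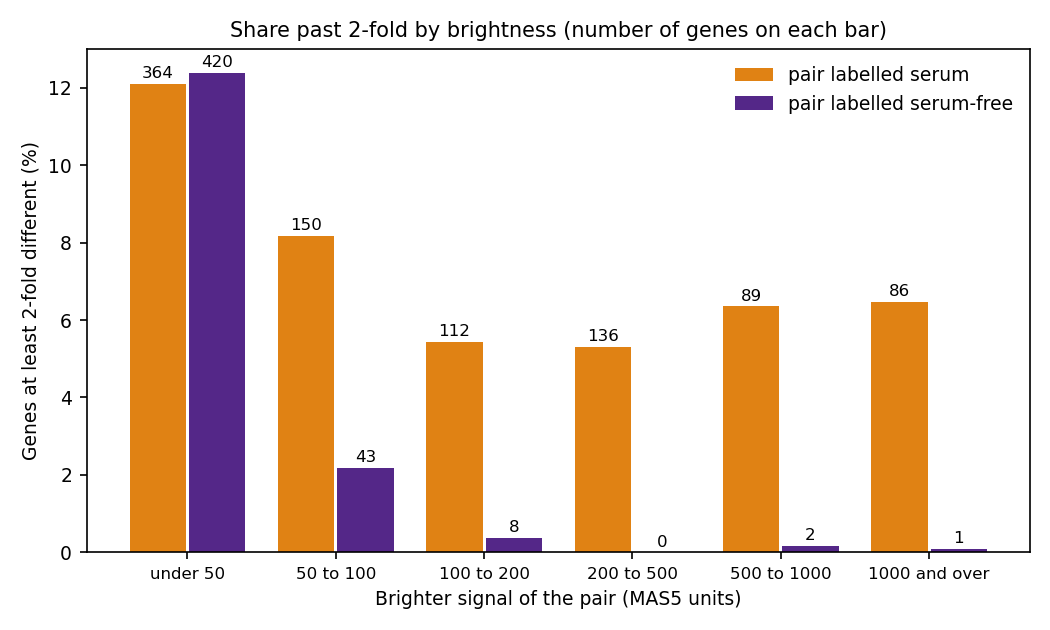
Bars give the percentage of genes at least 2-fold different between the induced and the silenced array, in 6 ranges of the brighter signal of the pair (MAS5 units), with the number of such genes on each bar. In the lowest range the pairs stand at 12.1% and 12.4%, and from 200 upward the pair labelled serum stays at 5.31% or more while the pair labelled serum-free is at 0.163% or less.

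A second probe set gives a second reading of the same RNA, and so covers the error of the probes but not that of the culture. Of 2997 genes with a second bright probe set, 61 were at least 2-fold higher by the brightest one and 103 at least 2-fold lower. The second probe set was also past 2-fold the same way for 47 and 83 of them, on the same side of 0 for 61 and 103, and past 1.5-fold for 59 and 101. No gene was past 2-fold in opposite directions by its probe sets. The readings of a gene differed by a median of 0.16 on the log2 scale, with a 90th percentile of 0.44, and 12 genes differed by 2-fold or more. Across genes, which are not independent replicates, the readings had a Pearson correlation of 0.870.

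**Figure D3:**
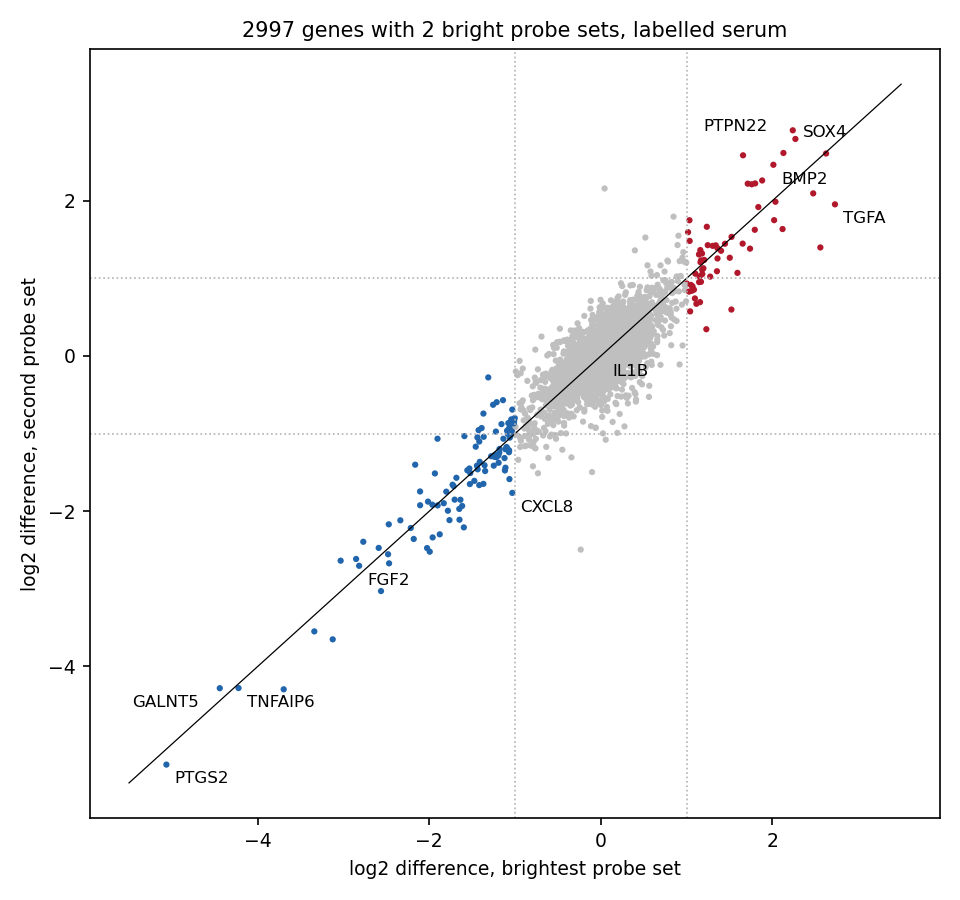
Each point is 1 of 2997 genes with 2 bright probe sets, with the log2 difference (induced minus silenced) of the brightest probe set on the x axis and of the second on the y axis; the line marks equality and the dotted lines 2-fold. All 61 genes called higher lie above 0 and all 103 called lower lie below 0 on the y axis, with PTGS2 at the lower end and IL1B near 0.

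FGF2, the basic fibroblast growth factor, was lower with DACH1 induced in both of its probe sets. The brightest read 1476 and 209.3 (7.05-fold lower) and the second 1186 and 182.0 (6.51-fold lower). On the arrays labelled serum-free the brightest read 299.6 silenced and 172.7 induced. The induced arrays thus had similar FGF2 signals, and the silenced array labelled serum stood above the other 3. Of 15 FGF ligand and receptor genes compared (26 on the array), 4 were at least 2-fold lower and none higher; the median log2 difference was -0.16. FGF7, the keratinocyte growth factor, read 280.4 and 18 (15.6-fold lower). GPC6, a glypican that can bind FGFs at the cell surface, read 756.7 and 281.7 (2.69-fold lower). The receptor FGFR1 read 289.4 and 402.3 (1.39-fold higher), and the syndecan SDC4 574.3 and 784.9 (1.37-fold higher), both under 2-fold in the other direction.

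The cytokine genes included the gene furthest below 0 of all those compared. IL6, the interleukin that signals through gp130, read 5184 and 124.5 (41.6-fold lower). LIF, a gp130 cytokine that maintains stem cells, read 1065 and 215.1 (4.95-fold lower), and the granulocyte factor CSF3 2345 and 1041 (2.25-fold lower). Of 15 gp130 cytokine and colony-stimulating factor genes, 3 were at least 2-fold lower and 0 were higher; the median was -0.56. The shared receptor IL6ST read 1943 and 2184 (1.12-fold higher), and its feedback inhibitor SOCS3 418.6 and 248.3 (1.69-fold lower), both under 2-fold. The cytokines IL11 and CTF1, of the same family, were dim and under 2-fold. In the pair labelled serum-free IL6 read 31.6 silenced and 19.6 induced, both below the induced array labelled serum.

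Of 12 chemokine genes compared, 8 were at least 2-fold lower and 0 were higher, beside 4.77% and 2.91% of all genes. The list's median log2 difference was -1.40. These chemokines mostly attract neutrophils through the receptors CXCR1 and CXCR2. CXCL1 read 236.8 and 15 (15.8-fold lower). CXCL5 read 323.9 and 22.1 (14.7-fold lower), and CXCL3 1710 and 171.0 (10.0-fold lower). At higher signals CXCL2 read 5072 and 1364 (3.72-fold lower), and CCL20, which attracts cells with CCR6, 3530 and 1041 (3.39-fold lower). CXCL8, the neutrophil chemokine interleukin 8, was among the brightest genes of the silenced array. Its probe sets read 7257 and 3547 (2.05-fold lower), and 7445 and 2192 (3.40-fold lower). CCL2 and CCL4, the remaining members past 2-fold, were dim on the silenced array and under the floor on the induced one. CCL5 read 113.6 and 63.1 (1.80-fold lower). CXCL12 and CCL26 were dim and under 2-fold. The NF-kB motif, in the letters searched here, was in the windows of CXCL1, CXCL3, CXCL5 and IL6, lower by 10.0-fold to 41.6-fold. Those letters were not in the windows of PTGS2, PLA2G4A and FGF2, lower by 33.5-fold, 9.19-fold and 7.05-fold. NF-kB sites spelled otherwise were not searched for, so these windows may still hold one.

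The interleukin 1 family had members on both sides and bright members near 0. IL1B, the secreted ligand of the interleukin 1 receptor, read 7569 and 7794 (1.03-fold higher), and its second probe set 7053 and 6983. It was thus among the brightest genes of both arrays while IL6 was 41.6-fold lower. IL1A, the other ligand of that receptor, read 1030 and 266.4 (3.87-fold lower) by its brightest probe set. IL1RN, the receptor antagonist, read 3407 and 6375 (1.87-fold higher). IL33, a nuclear alarmin, was higher, at 570.6 and 2740 (4.80-fold higher). IL36RN, the antagonist of the interleukin 36 receptor, read 294.3 and 633.7 (2.15-fold higher). IL36B, an agonist of that receptor, read 1165 and 1257 (1.08-fold higher). Of 13 members compared, 3 were at least 2-fold higher and 2 lower, with a median of 0.39. On the arrays labelled serum-free IL1B read 72.8 and 51.3, and IL33 was under the floor on both. The direction of IL1A depended on the probe set: without probe sets whose names end in _x_at or _s_at its log2 difference was 0.18 in place of -1.95.

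Of 16 other interleukin and receptor genes, 3 were at least 2-fold lower and 0 were higher; the median was -0.11. IL13RA2, a decoy receptor for interleukin 13 common in glioblastoma, read 5244 and 2337 (2.24-fold lower). IL24, a cytokine of the interleukin 10 family, read 1779 and 1692 (1.05-fold lower), near equality at a high signal.

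Genes of the steps that make prostaglandin E2 were lower. PTGS2, the inducible cyclooxygenase, read 3155 and 94.3 (33.5-fold lower), and its second probe set 1291 and 33.6 (38.4-fold lower). PLA2G4A, the phospholipase that frees arachidonic acid, read 131.4 and 14.3 (9.19-fold lower). PTGES, the inducible prostaglandin E synthase, read 1850 and 562.8 (3.29-fold lower), while the constitutive synthase PTGES3 read 3540 and 3488 (1.01-fold lower). PTGER4, a prostaglandin E2 receptor, read 251.6 and 99.2 (2.54-fold lower). Of 15 genes compared, 4 were at least 2-fold lower and 0 were higher; the median was -0.52. TNFAIP6, a hyaluronan-binding protein that inflammatory cytokines raise, read 1610 and 86.2 (18.7-fold lower), and 1263 and 65.1 by its second probe set.

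Of 21 NF-kB subunit and feedback genes, 2 were at least 2-fold lower (9.52%) and 0 were higher, beside 4.77% and 2.91% of all genes; the median was -0.05. TNFAIP3, the deubiquitinase A20, read 920.8 and 387.6 (2.38-fold lower). TNIP3, which binds A20, read 136.3 and 34.3 (3.97-fold lower). NFKBIZ, a nuclear cofactor needed for IL6 expression, read 5487 and 2859 (1.92-fold lower), just under 2-fold, and the inhibitor NFKBIA 1344 and 841.0 (1.60-fold lower). Of 19 TNF ligand and receptor genes, 3 were higher and 2 lower, with a median of -0.16. The 10 bright members held 1 higher and 1 lower. TNFRSF1A, the main TNF receptor, read 275.7 and 615.9 (2.23-fold higher).

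**Figure D4:**
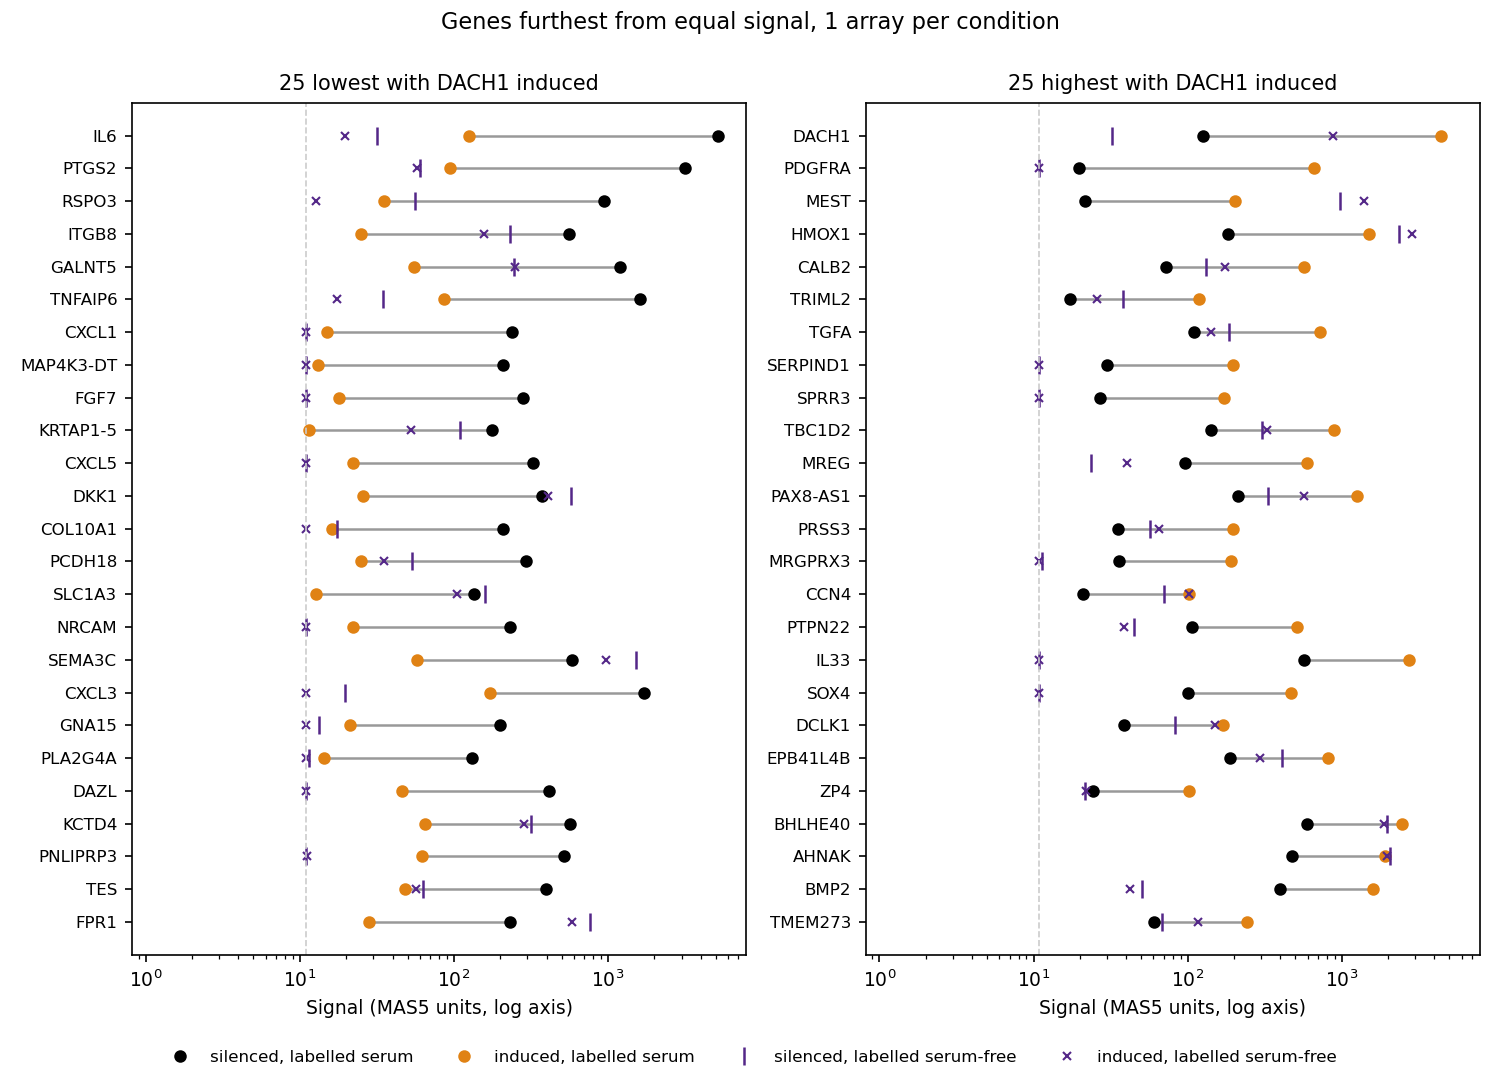
The 25 genes with the lowest (left) and the 25 with the highest (right) log2 difference among genes with a signal of 100 or more on 1 of the arrays and both signals above the floor, with signals in MAS5 units on a log axis. Filled circles joined by a line are the arrays labelled serum, with black for silenced and orange for induced; purple bars and crosses are the silenced and induced arrays labelled serum-free, and signals under the floor are drawn at it (dashed line). IL6 lies at 5184 silenced and 124.5 induced and DACH1 at 126.0 and 4431, while the purple marks of CXCL1 and CXCL5 lie at the floor.

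Ligands of the EGF receptor lay on both sides of 0. EREG, epiregulin, read 2981 and 471.5 (6.32-fold lower). TGFA, transforming growth factor alpha, was higher, at 109.5 and 725.8 (6.63-fold higher), and 33.9 and 131.2 by its second probe set. NRG1, neuregulin, which binds the receptors ERBB3 and ERBB4, read 714.2 and 272.5 (2.62-fold lower). The receptor EGFR itself read 481.1 and 766.8 (1.59-fold higher), and LRIG1, which promotes its degradation, 1250 and 784.5 (1.59-fold lower). Of 11 members compared, 2 were at least 2-fold higher and 3 lower, with a median of -0.55. Downstream of these receptors, 1 of 26 ERK feedback and ETS genes was higher and 2 lower, with a median of 0.14. DUSP6, a phosphatase that ends ERK signalling, read 2383 and 1012 (2.35-fold lower), and ETV1, an ETS factor induced by ERK, 970.9 and 259.4 (3.74-fold lower). DUSP1 read 2998 and 3662 (1.22-fold higher).

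PDGFRA, a receptor for platelet-derived growth factors that marks oligodendrocyte progenitors and a class of gliomas, was nearly silent on the silenced array. Its brightest probe set read 19.7 and 656.2 (33.3-fold higher), and another read 13.1 and 92.7 (7.08-fold higher). The other 2 of its 4 probe sets were under the floor on both arrays. On the arrays labelled serum-free none of the 4 read above 13.8. The ligand PDGFC was lower, at 1775 and 775.8 (2.29-fold lower). VEGFC, which drives lymphatic growth, read 532.0 and 220.2 (2.42-fold lower). KITLG, the ligand of KIT, read 259.6 and 107.2 (2.42-fold lower). VEGFA, the main angiogenic ligand, read 3762 and 4873 (1.30-fold higher) and so was under 2-fold. Of 16 members compared, 1 was higher and 4 lower, with a median of 0.18. Of 18 MET, AXL, EPH and other receptor kinase genes, 1 was higher and 0 lower, with a median of 0.23. That gene was AXL, a receptor kinase of mesenchymal tumour cells, at 435.2 and 996.2 (2.29-fold higher). MET, the receptor of hepatocyte growth factor, read 853.5 and 1413 (1.66-fold higher).

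Of 12 IGF binding protein and related genes, 6 were at least 2-fold lower and 0 higher, beside 4.77% and 2.91% of all genes. Of the 12, 11 lay below 0, with a median of -1.0. Among the 9 bright members 3 were lower and 0 higher, so the remaining lower members were dim. Besides IGFBP genes the list held IGF2BP2, IGF2BP3, STC1, STC2, PAPPA and PAPPA2. PAPPA, a protease that cleaves IGF binding proteins, read 4440 and 2038 (2.18-fold lower). IGFBP3, the main carrier of IGFs, read 807.7 and 356.1 (2.27-fold lower). STC2, an inhibitor of PAPPA, read 472.6 and 174.3 (2.71-fold lower). IGFBP6 was the member above 0, at 1186 and 2234 (1.88-fold higher).

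In the Wnt pathway a potentiator and an antagonist were lower together. RSPO3, an R-spondin that sustains Wnt receptors at the cell surface, read 945.0 and 35 (27-fold lower). DKK1, a secreted Wnt antagonist, read 374.3 and 25.8 (14.5-fold lower). WNT5A, a ligand of the non-canonical branch, read 3311 and 1732 (1.91-fold lower), just under 2-fold, and was past 2-fold lower by its second probe set. RSPO3 and DKK1 were the 2 of 23 genes past 2-fold, 0 were higher, and the median was -0.08. RSPO3 was also lower in the pair labelled serum-free, at 55.7 and 12.7, whereas DKK1 read 571.5 and 408.1 there.

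BMP2 and the activin subunit gene INHBA were higher. BMP2 read 395.2 and 1593 (4.03-fold higher), and INHBA, the subunit of activin A, 515.5 and 1897 (3.68-fold higher). Second probe sets of these genes read 214.7 and 1183, and 165.3 and 791.7. FST, follistatin, which binds and blocks activin, was lower, at 779.8 and 200.3 (3.89-fold lower). GREM1, gremlin, a BMP antagonist, read 2794 and 1505 (1.86-fold lower). ID1, a helix-loop-helix target of BMP signalling, read 134.3 and 491.7 (3.66-fold higher). BMP2 and INHBA were thus higher and FST lower on the same array. Of 28 genes compared, 4 were higher and 1 lower, with a median of 0.23. On the arrays labelled serum-free BMP2 read 50.7 and 42.1 and INHBA 41.5 and 45.9.

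Of 18 TGF-beta genes compared, 2 were lower and 0 were higher; the median was 0.00. TGFB2, a ligand secreted by gliomas, read 316.7 and 93.2 (3.40-fold lower), and LTBP1, which holds latent TGF-beta in the matrix, 1028 and 185.7 (5.54-fold lower). The secreted target TGFBI read 2207 and 2292 (1.04-fold higher). Of 11 Notch genes none was past 2-fold, and NOTCH2, the brightest receptor, read 2030 and 2696 (1.33-fold higher).

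Among transcription factors, 3 of 31 SOX, FOX and other developmental factor genes were higher and 6 lower, with a median of -0.06. The 17 bright members held 3 higher and 3 lower. SOX4, a factor of embryonic and tumour cells, read 100.1 and 471.9 (4.71-fold higher), and 33.5 and 251.1 by its second probe set. FOXL1, a mesenchymal forkhead factor, read 243.9 and 795.3 (3.26-fold higher). RUNX2, the bone factor, was lower, at 1063 and 286.3 (3.71-fold lower). TWIST1 and ZEB2, both repressors of E-cadherin, read 188.2 and 55.5 (3.39-fold lower) and 775.9 and 291.6 (2.66-fold lower). SNAI2, of the same kind, read 1712 and 2796 (1.63-fold higher), under 2-fold in the other direction. EYA4, a network partner, read 252.5 and 134.3 (1.88-fold lower). The SKI-related gene SKIL read 742.5 and 600.3 (1.24-fold lower). None of 13 HOX genes was past 2-fold; their median was 0.26.

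Of 28 AP-1 and immediate early factor genes, 2 were higher and 2 lower, with a median of 0.11. BHLHE40, a helix-loop-helix repressor, read 597.1 and 2446 (4.10-fold higher). NR4A2, an orphan nuclear receptor, read 182.8 and 40.3 (4.54-fold lower), and CEBPD, a C/EBP factor of the acute phase, 332.4 and 133.5 (2.49-fold lower). JUN, an AP-1 subunit, read 2506 and 3149 (1.26-fold higher), and CEBPB 4522 and 5125 (1.13-fold higher). Zinc finger genes named ZNF were 262, with 4 higher and 6 lower and a median of -0.02.

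Some neural and glial genes differed by 2-fold or more, in both directions. CALB2, the calcium-binding protein calretinin, read 72 and 569.2 (7.91-fold higher). SNAP25, a synaptic membrane protein, read 160.2 and 68.6 (2.34-fold lower), and MAP2, a dendritic protein, 44 and 4.4 (at least 4.04-fold lower). Of 13 neuronal markers compared, 2 were higher (15.4%) and 4 lower (30.8%), with a median of -0.18; 7 of the 13 had a signal of 100 or more, with 1 higher and 1 lower. SLC1A3, the glutamate transporter of astrocytes, read 135.0 and 12.8 (10.5-fold lower). Of 15 astrocyte and glial markers 1 was higher, PDGFRA, and 2 were lower, with a median of -0.23. Among 14 neural stem and glioma progenitor genes, 2 were higher and 1 lower, with a median of 0.13. CD24, a surface glycoprotein, read 176.5 and 452.7 (2.56-fold higher). ITGA6, the laminin receptor subunit used to isolate glioma stem cells, read 47.6 and 125.7 (2.64-fold higher). ALDH1A3, the retinaldehyde dehydrogenase of mesenchymal glioma stem cells, read 4067 and 1765 (2.30-fold lower). DCLK1, a kinase that binds microtubules, read 38.9 and 170.0 (4.37-fold higher). Of 5 genes that mark other cell types 1, KRT5, was lower, at 24.7 and 6.6 (at least 2.27-fold lower).

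Of 19 matrix metalloproteinase and inhibitor genes, 1 was higher and 6 lower, with a median of -0.11. Among the 7 of them with a signal of 100 or more, 1 was higher and 1 lower, so most of the lower members were dim. MMP3, stromelysin 1, read 3064 and 824.7 (3.72-fold lower). MMP1, interstitial collagenase, read 1231 and 883.3 (1.39-fold lower), and MMP2, gelatinase A, 3124 and 3183 (1.02-fold higher). MMP19 was the member higher, at 66.1 and 143.2 (2.17-fold higher). The inhibitor TIMP1 read 8026 and 8832 (1.10-fold higher) and was nearly equal. ADAMTS5, an aggrecanase, read 2681 and 393.2 (6.82-fold lower), and 1202 and 228.7 by its second probe set. ADAMTS1, another protease of proteoglycans, read 2691 and 1397 (1.93-fold lower), just under 2-fold. ADAMTS12 was higher, at 107.1 and 273.9 (2.56-fold higher). Of 22 ADAM and ADAMTS genes, 4 were higher and 4 lower, beside 2.91% and 4.77% of all genes, with a median of -0.08. The 9 bright members held 1 higher and 2 lower, so most of those past 2-fold were dim.

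Of 20 plasminogen activator, coagulation inhibitor and serpin genes, 5 were higher and 3 lower, with a median of -0.01. The 14 bright members held 3 higher and 3 lower. The lower 3 were clade B serpins: SERPINB7 read 895.1 and 137.4 (6.51-fold lower), SERPINB3 394.7 and 163.8 (2.41-fold lower) and SERPINB4 488.7 and 212.7 (2.30-fold lower). The last 2 are near-identical neighbours whose signals the probes may not separate. SERPIND1, heparin cofactor II, read 30.0 and 195.9 (6.53-fold higher), and THBD, thrombomodulin, 57.5 and 205.2 (3.57-fold higher). F3, tissue factor, which starts coagulation, read 699.8 and 1438 (2.06-fold higher).

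Of 23 collagen chains, 2 were higher and 6 lower, beside 2.91% and 4.77% of all genes. Of the 23, 16 lay below 0, and the median was -0.27. Among the 13 bright chains 0 were higher and 3 lower, so the higher chains and the remaining lower ones were dim. COL10A1, a chain of hypertrophic cartilage, read 208.8 and 16.1 (13-fold lower), with its second probe set at 213.9 on the silenced array and under the floor on the induced one. COL5A2 read 277.6 and 103.9 (2.67-fold lower). The fibrillar chain COL1A1 read 1244 and 1112 (1.12-fold lower) and COL6A3, of microfibrils, 2221 and 1452 (1.53-fold lower). LOX, lysyl oxidase, which cross-links collagen, read 1266 and 521.7 (2.43-fold lower). PCOLCE, an enhancer of procollagen cleavage, read 121.8 and 55.6 (2.19-fold lower). These were the 2 past 2-fold of 18 collagen-modifying enzymes, whose median was -0.20.

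Of 36 matricellular and other matrix genes, 3 were higher and 6 lower, with a median of -0.01. DCN, the proteoglycan decorin, read 1349 and 485.3 (2.78-fold lower), and the related LUM, lumican, 920.1 and 439.1 (2.10-fold lower). CCN1, an integrin ligand, was lower, at 911.2 and 316.2 (2.88-fold lower), and its relative CCN4 higher, at 21.1 and 102.1 (4.84-fold higher). FN1, fibronectin, read 2416 and 1306 (1.85-fold lower), and its second probe set was past 2-fold lower. TNC, tenascin C, read 3342 and 3471 (1.04-fold higher). Among 19 integrin and laminin genes, 3 were higher and 5 lower, with a median of -0.11. ITGB8, which frees active TGF-beta from its latent form, read 554.3 and 24.9 (22.3-fold lower). LAMA4, a laminin chain of vessel walls, read 186.2 and 25.6 (7.27-fold lower), and LAMB3, a laminin 332 chain, 270.9 and 782.4 (2.89-fold higher). ITGA2, a collagen receptor subunit, read 261.1 and 103.2 (2.53-fold lower). ITGB1, the common partner, read 5512 and 5742 (1.04-fold higher) and was nearly equal.

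Of 26 cadherin and adhesion genes, 2 were higher and 6 lower, beside 2.91% and 4.77% of all genes. Among the 10 bright members 2 were higher and 1 lower, so most of the lower members were dim. The list's median was -0.22, which quantile normalization and the housekeeping scaling brought to within 0.1 of the median of all genes. GJB2, connexin 26, read 315.0 and 101.4 (3.11-fold lower). GJA1, connexin 43, read 3800 and 2611 (1.46-fold lower). Of 21 protocadherins, 4 were lower and 0 were higher; the median was -0.26. PCDH18 read 293.9 and 25 (11.8-fold lower) and PCDH7 556.4 and 85.2 (6.53-fold lower); both are non-clustered protocadherins. NRCAM, a neuronal adhesion protein, read 231.3 and 22.2 (10.4-fold lower). Of 38 axon guidance genes, 4 were higher and 5 lower, with a median of -0.02. The 14 bright members held 1 higher and 3 lower. SEMA3C, a secreted semaphorin of glioma stem cells, read 586.3 and 57.9 (10.1-fold lower). SLIT2, a repellent that binds ROBO receptors, read 258.6 and 81.7 (3.17-fold lower). RGMB, a BMP co-receptor, read 704.3 and 216.1 (3.26-fold lower). NRP1 and NRP2, the semaphorin co-receptors, read 2316 and 1801 (1.29-fold lower) and 1741 and 1964 (1.13-fold higher).

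Of 12 keratins, 5 were higher and 1 lower, with a median of 0.53. Most were dim, and after scaling to housekeeping genes the median was -0.22, or 0.03 above that of all genes, so that the list had no direction that survived the scaling. KRT33B, a hair keratin, was the 1 of 3 bright members past 2-fold, at 483.5 and 1278 (2.64-fold higher). KRTAP1-5, a keratin-associated protein, was lower, at 175.9 and 11.4 (15.4-fold lower). Among 18 mucin-type glycosyltransferases, GALNT5 read 1202 and 55.3 (21.7-fold lower) and GALNT12 233.1 and 575.4 (2.47-fold higher); these enzymes start O-linked glycosylation. The other 4 probe sets of GALNT5 were also lower, by 5.07-fold, 15-fold, 19.4-fold and at least 13.2-fold. The list's median was 0.02.

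Contractile genes of the smooth-muscle type were mostly under 2-fold. Of 21, 2 were lower and 0 were higher; the median was 0.12. ACTA2, smooth-muscle actin, read 477.1 and 208.1 (2.29-fold lower), and TPM2, a tropomyosin, 343.9 and 162.9 (2.11-fold lower). Of 22 Hippo pathway genes and targets, 2 were higher and 1 lower, with a median of 0.15; the kinase AXL, the factor F3 and CCN1, given above, were those 3. YAP1, the effector of the pathway, read 1172 and 1130 (1.04-fold lower).

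**Figure D5:**
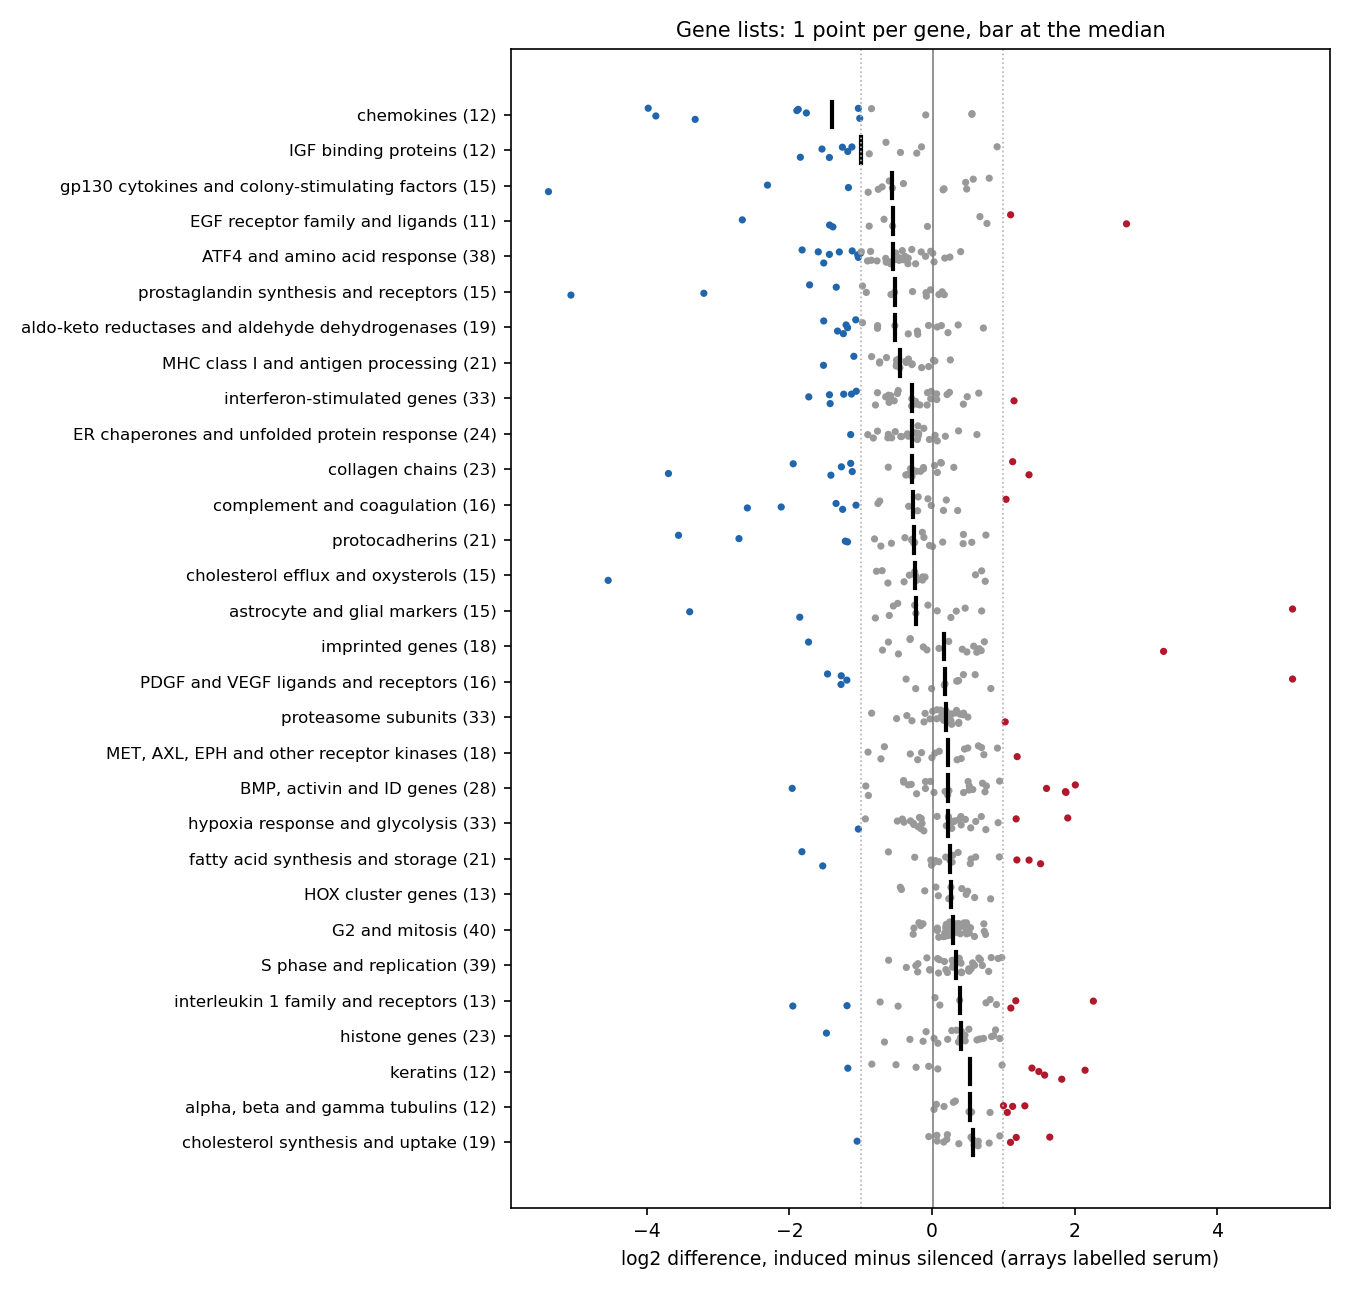
Each point is a gene and each row 1 of 30 gene lists, with the number of genes compared in brackets. Not all 69 lists are drawn: these have the lowest and the highest medians among lists of 11 to 40 genes compared. The x axis is the log2 difference, induced minus silenced, on the arrays labelled serum. Blue points are at least 2-fold lower and red points at least 2-fold higher, dotted lines mark 2-fold, and a black bar marks the list's median, from -1.40 for chemokines to 0.57 for cholesterol synthesis.

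Cholesterol synthesis genes stood higher as a list. Of 19, 17 lay above 0, 3 were at least 2-fold higher and 1 lower, with a median of 0.57, and after scaling to housekeeping genes the median was still 0.33. HMGCS1, which makes the precursor of mevalonate, read 253.2 and 796.0 (3.14-fold higher), and 1.45 by log2 in its second probe set. SQLE, squalene epoxidase, read 367.6 and 834.0 (2.27-fold higher). EBP, a sterol isomerase, read 433.8 and 930.7 (2.15-fold higher). INSIG1, the sterol sensor that holds back the pathway, read 3979 and 4186 (1.05-fold higher). On the arrays labelled serum-free HMGCS1 read 243.6 and 213.3. Of 15 cholesterol efflux and oxysterol genes, 1 was lower and 0 were higher; the median was -0.23. CH25H, which makes 25-hydroxycholesterol, was that gene, at 254.0 and 8.9 (at least 23.3-fold lower). ABCA1, the efflux pump, read 1546 and 1008 (1.53-fold lower).

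Of 21 fatty acid genes, 3 were higher and 2 lower, with a median of 0.25. LPIN1, a phosphatidate phosphatase, read 492.2 and 1415 (2.87-fold higher). ACSL1, which activates fatty acids, read 2077 and 718.2 (2.89-fold lower). SCD, the desaturase of stearate, read 1128 and 1650 (1.46-fold higher). Among 22 steroid and retinoid enzymes, 4 were higher and 5 lower, and the median was -0.13. The 6 bright members held 2 higher and 3 lower. CYP1B1, a steroid and retinoid hydroxylase, read 770.2 and 106.6 (7.23-fold lower). HSD11B1, which makes active cortisol, read 211.9 and 30.8 (6.88-fold lower). RDH10 and DHRS3, which interconvert retinol and retinal, read 101.4 and 244.2 (2.41-fold higher) and 104.5 and 261.8 (2.51-fold higher).

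HMOX1, heme oxygenase 1, which degrades heme and answers to NRF2 and to BACH1, read 182.4 and 1498 (8.21-fold higher). Several other NRF2 targets were lower. GCLC, the catalytic subunit of glutathione synthesis, read 1412 and 521.7 (2.71-fold lower). AKR1C1 and AKR1C2 read 225.4 and 107.4 (2.10-fold lower) and 134.7 and 59.3 (2.27-fold lower); these aldo-keto reductases are near-identical copies and their signals may mix. Of 25 NRF2 and heme oxygenase targets, 3 were higher and 5 lower, with a median of 0.12. The 19 bright members held 1 higher and 3 lower. Of 19 aldo-keto reductases and aldehyde dehydrogenases, 6 were lower and 0 were higher; the median was -0.52. Among 33 metallothionein and metal transport genes, 1 was higher and 0 lower, with a median of 0.05, and MT2A, the brightest, read 7696 and 8358 (1.09-fold higher).

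ATF4 and amino acid response genes stood lower as a list. Of 38, 33 lay below 0, 9 were at least 2-fold lower and 0 were higher; the median was -0.54. ASNS, asparagine synthetase, read 1665 and 766.5 (2.17-fold lower). TRIB3, a pseudokinase that holds back ATF4, read 835.7 and 405.9 (2.06-fold lower). GDF15, a stress cytokine, read 852.3 and 241.1 (3.54-fold lower). CHAC1, which degrades glutathione, read 108.7 and 54.3 (2.0-fold lower), and PSAT1, of serine synthesis, 2500 and 1257 (1.99-fold lower). ATF4 itself read 3650 and 2798 (1.30-fold lower). Of 24 endoplasmic reticulum chaperone and unfolded protein genes, 19 lay below 0, 1 was at least 2-fold lower and 0 were higher; the median was -0.29. ERN1, the stress sensor IRE1, was that gene, at 540.1 and 245.0 (2.20-fold lower), and the chaperone HSPA5 read 4917 and 3440 (1.43-fold lower). None of 19 cytosolic heat shock genes was past 2-fold, and HSP90AA1, the inducible cytosolic chaperone, read 6363 and 6332.

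Of 33 hypoxia and glycolysis genes, 2 were higher and 1 lower, with a median of 0.23. NDRG1, a marker of hypoxia, read 311.9 and 1168 (3.74-fold higher). SLC2A3, a glucose transporter, read 440.8 and 999.1 (2.27-fold higher). DDIT4, an inhibitor of mTORC1, read 2148 and 1050 (2.05-fold lower). ADM, adrenomedullin, another gene that hypoxia raises, read 5324 and 2786 (1.91-fold lower), just under 2-fold.

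Most cell cycle genes lay above 0 by less than 2-fold. Of 39 S phase and replication genes, 31 lay above 0 and none was past 2-fold, with a median of 0.33. RRM2, a subunit of ribonucleotide reductase, read 367.9 and 725.2 (1.97-fold higher), just under 2-fold, and PCNA, the replication clamp, 1060 and 1040 (1.02-fold lower). Of 40 G2 and mitosis genes, 35 lay above 0 and none was past 2-fold, with a median of 0.29. PTTG1, securin, read 1040 and 1322 (1.27-fold higher). After scaling to housekeeping genes these medians were 0.10 and 0.06, which are 0.34 and 0.30 above that of all genes. Of 23 histone genes, variants included, 1 was lower and 0 were higher; the median was 0.40. Of 32 D cyclin, CDK inhibitor and p53 response genes, 1 was higher and 2 lower, with a median of 0.10. PMAIP1, the death protein NOXA, read 619.3 and 197.6 (3.13-fold lower). PLK2, a kinase that p53 raises, read 768.0 and 346.6 (2.22-fold lower). CDK6, the kinase of D cyclins, read 175.5 and 366.2 (2.09-fold higher), while CDKN1A, the inhibitor p21, read 2157 and 2350 (1.09-fold higher) and was nearly equal.

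As deposited, all 12 alpha, beta and gamma tubulins compared lay above 0, 4 of them at least 2-fold higher and 0 lower, with a median of 0.54. TUBA1A read 1239 and 3057 (2.47-fold higher). TUBB2A read 453.1 and 992.7 (2.19-fold higher), TUBB6 1369 and 2847 (2.08-fold higher) and TUBA4A 589.7 and 1182 (2.0-fold higher). Tubulins are near-identical copies, so a probe set can read several of them. The median after scaling to housekeeping genes was 0.28, which is 0.53 above that of all genes. Of 33 proteasome subunits 26 lay above 0 and 1, PSMD2, was at least 2-fold higher, at 1171 and 2386 (2.04-fold higher), with a list median of 0.20. Of 73 respiratory chain genes 1 was higher and 0 lower, with a median of 0.11. None of 59 ribosomal protein genes was past 2-fold; their median was 0.02. None of 21 housekeeping genes was past 2-fold, and 17 lay above 0, with a median of 0.12; GAPDH read 6274 and 7213 (1.15-fold higher).

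Interferon and antigen genes lay mostly below 0. Of 33 interferon-stimulated genes, 25 lay below 0, 1 was at least 2-fold higher and 6 lower, with a median of -0.29. GBP1, a guanylate-binding protein, read 284.3 and 85.8 (3.31-fold lower). IFI44L read 413.2 and 152.5 (2.71-fold lower). IRF1, a factor that interferon and NF-kB both raise, read 334.0 and 160.0 (2.09-fold lower). SP110 was the member higher, at 113.4 and 251.8 (2.22-fold higher). Of 21 antigen-processing genes 18 lay below 0 and 2 were at least 2-fold lower, the class II gene HLA-DPA1 and the class II regulator CIITA, both dim, with a list median of -0.45. None of the 14 bright members of this list was past 2-fold. Of these, HLA-B and B2M were nearly equal: HLA-B read 4807 and 4656 (1.03-fold lower), and B2M 8073 and 8188 (1.01-fold higher). The other bright members are not given one by one here. Class I genes are near-identical copies, so their probe sets may share signal.

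Of 16 complement and coagulation genes, 1 was higher and 5 lower, with a median of -0.26. C1S and C1R, the paired proteases of the first component, read 332.3 and 55.2 (6.02-fold lower) and 217.0 and 50.1 (4.33-fold lower). C3, the central component, read 1765 and 1544 (1.14-fold lower), and CD59, which protects cells from lysis, 2929 and 3760 (1.28-fold higher). The early proteases were thus lower where C3 was nearly equal.

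Solute carriers had shares near those of all genes. Of 194 solute carriers, 6 were higher and 8 lower, with a median of -0.02. SLC16A7, a monocarboxylate transporter, read 134.3 and 21.8 (6.16-fold lower). SLC43A3, a nucleobase transporter, read 1760 and 770.4 (2.28-fold lower). Of 60 ion channel genes, 5 were higher and 6 lower, with a median of -0.06. The 19 bright members held 2 higher and 1 lower. KCNN4, a calcium-activated potassium channel, read 91.8 and 238.6 (2.60-fold higher), and TRPV2, a cation channel, 113.7 and 26.4 (4.31-fold lower). Of 58 G-protein receptor and regulator genes, 3 were higher and 6 lower, with a median of 0.00. The 18 bright members held 0 higher and 3 lower. RGS2, which ends signalling of the Gq class, read 703.2 and 310.8 (2.26-fold lower). LPAR1, a lysophosphatidate receptor, read 205.3 and 53.7 (3.82-fold lower). GNA15, an alpha subunit of the Gq class, read 200.2 and 21.3 (9.40-fold lower). FPR1, the formyl peptide receptor, read 229.8 and 28.1 (8.18-fold lower), with 765.7 and 582.3 on the arrays labelled serum-free. Of 19 purine and cAMP genes, 3 were higher and 2 lower, with a median of 0.11. PDE4D, a cAMP phosphodiesterase, read 152.2 and 55.4 (2.75-fold lower). ADCY7, an adenylate cyclase, read 33 and 121.0 (3.67-fold higher). Its log2 difference was however -0.76 without probe sets whose names end in _x_at or _s_at.

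MEST, a gene expressed from the paternal copy, read 21.5 and 204.4 (9.51-fold higher), where the arrays labelled serum-free read 971.3 and 1391. It was the bright one of 2 members past 2-fold among 18 imprinted genes, whose median was 0.17. The cancer-testis list had 2 members compared, none past 2-fold. Genes in no list were also among those furthest apart. RAB27B, a GTPase of secretory vesicles, read 4033 and 682.6 (5.91-fold lower). TES, testin, a focal adhesion protein, read 393.8 and 48.1 (8.19-fold lower). DAZL, an RNA-binding protein of germ cells, read 413.3 and 45.7 (9.04-fold lower). PNLIPRP3, of the pancreatic lipase family, read 515.1 and 62 (8.31-fold lower). On the higher side, AHNAK, a giant scaffold protein, read 472.5 and 1916 (4.05-fold higher). PTPN22, a phosphatase of lymphocytes, read 106.6 and 513.3 (4.82-fold higher). TBC1D2, a GTPase regulator, read 142.3 and 889.6 (6.25-fold higher), and MREG, melanoregulin, 96.5 and 595.3 (6.17-fold higher). S100A10, the annexin A2 partner, read 2601 and 5185 (1.99-fold higher) and so lay just outside 2-fold, as did EFCAB7 at 522.2 and 261.4. FLRT2, an adhesion protein, lay just inside it, at 501.1 and 250.5.

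Set beside the pair labelled serum-free, few of these differences recurred there at that size. Of 7296 genes compared in both pairs with a signal of 100 or more on an array labelled serum, 388 were past 2-fold here, 154 higher and 234 lower. In the other pair 1.02% of all genes were higher and 2.73% lower, most of them dim, while of these 7296 genes 6 were higher and 7 lower. Of the 388, 8 were past 2-fold the same way there and 0 the opposite way. Higher in both were DACH1 and TGM2, transglutaminase 2, which read 278.8 and 930.4 (3.34-fold higher) here and 34.8 and 77.2 there. Lower in both were CH25H, CXCL8, KRTAP1-5, RSPO3, SLIT2 and SYTL3, an effector of vesicle transport at 142.5 and 62 (2.30-fold lower) here and 145.7 and 72.8 there. CXCL8 read 95.2 silenced and 46.6 induced in that pair, SLIT2 51.6 and 22.6, KRTAP1-5 109.0 and 52.6, and CH25H 44.8 and 22.1. Some of the genes furthest apart in the pair labelled serum were dim on both arrays of the other. PTGS2 read 59.8 and 57.8 there, and CXCL3 19.7 and 5.0. Others were bright and under 2-fold: HMOX1 read 2357 and 2841, SEMA3C 1518 and 967.7, and GALNT5 245.7 and 248.8. No difference between the pairs was tested, since neither has a replicate.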

How the data were processed

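The authors deposited a linear signal intensity for every probe set, which the submitters' processing notes credit to MAS5. Its version and target, like the chip definition, were not given in the sources used here. MAS5 subtracts a background estimated from mismatch probes, so dim signals are noisy on the log scale. Array medians were 15.7 to 19.3 over the 4 arrays, trimmed means lay within 99.63 and 99.65, and 0 columns were left unused. Per the labels' protocols, 6 µg of total RNA entered the labelling of each array.

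Gene names come from GEO's platform annotation, brought up to date by Entrez identifier: 41091 had 1 gene, 1801 several, and 11721 are unnamed here. Each gene was read by the probe set brightest on average (log2) across the 4 arrays. Signals under 10.9 were raised to it, a gene needed a signal of 17.2 on 1 array of the pair, and exactly 2-fold or more counted as a difference. Log2 differences are induced minus silenced. The computation was tested on simulated data. With 1 array a side no p-value exists, and precision is limited by the number of arrays.

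Genes described in the text were taken by a rule: DACH1 and FGF2, the 25 furthest from 0 on each side with a signal of 100 or more, of each of 69 lists (2929 genes) up to 8 bright members furthest from 0 and the 2 brightest, the 12 furthest on each side with a second probe set past 2-fold, and 6 on each side just inside and just outside 2-fold. The result of 1 list is not reported here. Cell type markers were fixed apart from this rule. IL6ST, IL11, CTF1, MAP2, FN1, CNN1, ID3, COL1A2, YAP1, PTTG1, HLA-B, CCL2, CCL4, CXCL12, CCL26, HLA-DPA1, CIITA, TGM2 and SYTL3 fall outside it and were chosen after their values were seen. The members and lists were chosen with earlier results of these data known. Promoter windows are from RefSeq. Alternatives tried were quantile normalization, scaling to housekeeping genes, other floors, filters, thresholds and pseudocounts, and the mean of a gene's probe sets. Another left out probe sets whose names end in _x_at or _s_at. Tools were Python 3.11.15, numpy 2.4.6, pandas 2.3.3 and matplotlib 3.10.9.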

Additional observations from a re-analysis of the deposited data

Results flagged for a closer look

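Probe sets that name no gene here or several genes were left out of the comparisons above, and some of the bright ones (a signal of 100 or more on an array labelled serum) differed. Of 900 bright unnamed probe sets, 19 were higher with DACH1 induced by 2-fold or more and 37 were lower, or 6.22% in all, beside 5.88% of probe sets with 1 gene. The 2 furthest below 0 read 179.5 silenced and 10.3 induced, and 141.0 and 5.0, and the 2 furthest above 0 read 14.7 and 151.3, and 123.6 and 441.6. Of 641 bright probe sets that name several genes, 5 were higher by this measure and 10 lower (2.34%).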

How the results depend on the processing

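With 1 array a side, no replicate could be left out. No paired analysis was possible because the groups compared share fewer than 2 replicate numbers. The DACH1 log2 difference of 5.14 was 1.74 as the mean of its probe sets. It was 0.10 without probe sets whose names end in _x_at or _s_at, since the probe set that detected DACH1 is 1 of those. In the same setting ADCY7 was -0.76 in place of 1.87 and IL1A 0.18 in place of -1.95. The 355 genes higher became 1196 at 1.5-fold, 75 at 3-fold, 223 with both arrays above the median signal and 165 with the floor at 50. The 582 genes lower became 1543, 186, 356 and 258 in these settings and 1221 after scaling to housekeeping genes, which also turned the keratin median to -0.22 (0.03 above that of all genes). Second probe sets past 2-fold numbered 24 higher (in place of 47) and 171 lower (in place of 83) after the housekeeping scaling. They numbered 22 and 32 without the probe sets with these name endings. Fewer genes were tested under the stricter floor, filter and probe set choices, and more, 13485, after the housekeeping scaling. The cause of the other changes was not tested. Of the 937 genes past 2-fold, 875 kept their side of 2-fold after quantile normalization, 791 after the housekeeping scaling and 623 with a pseudocount in place of the floor. With the mean of probe sets 597 of 853 did, and without the probe sets with these name endings 705 of 749. Of 29 gene lists whose median lay 0.2 or more from that of all genes, none had the other sign relative to it after quantile normalization or the housekeeping scaling. Low signal limits the rest: 41.1% and 42.1% of the probe sets were at or under the floor on the silenced and induced arrays labelled serum.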
